A study of Mus musculus with 101 samples.

Results

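Cytosine methylation of DNA is written, copied and erased by a small set of enzymes, and 10 mouse genes of this set are described here in sorted primordial germ cells (PGCs). They are the DNA methyltransferase genes Dnmt1, Dnmt3a, Dnmt3b and Dnmt3l, the ubiquitin ligase genes Uhrf1 and Uhrf2, the dioxygenase genes Tet1, Tet2 and Tet3, and the glycosylase gene Tdg. The genes were chosen by symbol, without a threshold on their values. Of the 10 genes named, 9 were among the 15423 genes measured, and Dnmt3l was not analysed here.

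RNA-seq had been made on PGCs of 53 male and 48 female mouse embryos of 56 dams. The question was how these genes differ between the sexes and after direct or ancestral exposure to benzo[a]pyrene (BaP), a polycyclic aromatic hydrocarbon. All embryos were of the OG2 strain, which carries an EGFP transgene driven by the promoter of Oct4 (Pou5f1), and the PGCs were sorted for EGFP from gonads at E13.5. Only F0 dams were dosed, orally during pregnancy, with vehicle or with BaP at 1 of 3 doses (0.033, 0.2 and 2 mg/kg-day). F0 dams of the F2 and F3 embryos were dosed for longer than those of the F1 embryos. All embryos that descend from F0 dams given BaP are called exposed here. F1 embryos were exposed in utero and F2 embryos as germ cells, while F3 embryos were not themselves exposed. Vehicle groups held 5, 6 and 6 females and 5, 6 and 6 males in F1, F2 and F3.

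The dose groups were smaller. At 0.033 mg/kg-day there were 2, 3 and 4 females and 2, 3 and 4 males in F1, F2 and F3. At 0.2 mg/kg-day there were 5, 3 and 2 females and 6, 3 and 4 males, and at 2 mg/kg-day 5, 3 and 4 females and 8, 3 and 3 males. Littermates share a dam, and no group holds 2 females of a dam. Some male groups hold brothers: F1 at 2 mg/kg-day (8 males of 7 dams), F1 at 0.2 mg/kg-day (6 of 5) and F3 at 0.2 mg/kg-day (4 of 3). The main fit had no term for dams, which were used as a block in 1 other setting. The labels do not give the F0 dam of F2 and F3 embryos, so embryos of different dams may descend from the same F0 dam. Because EGFP follows the Pou5f1 promoter, the sort takes cells by a gene that falls as female germ cells enter meiosis. The cDNA was primed with oligo(dT). Reads were assigned to exons and counted per gene, so the values do not separate isoforms or transcription starts. The counting is not stated to use strand.

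Values are counts normalized between libraries by the authors and are called normalized counts. Whole reads could be recovered in 99 libraries, all but 2, with 5004382 to 87240533 reads per library and a median of 7789673. A set of 11 F1 libraries from 6 dams held 21247642 reads or more, against at most 12211582 in every other library, and these are called the deep libraries. Of the deep libraries, 5 were female (1 vehicle, 2 at 0.2 and 2 at 2 mg/kg-day) and 6 male (2 vehicle, 1 at 0.2 and 3 at 2 mg/kg-day). Tests used limma on log2(normalized count + 0.5), two-sided, over genes with a mean of at least 0.5. A gene is counted as called at an adjusted p under 0.05, where p was adjusted over all genes of the comparison by the Benjamini-Hochberg method. Fold changes are given on this log2 scale with the standard error (SE), and they understate changes of genes with low counts.

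The sorted cells carried germ cell transcripts in every library. The summed normalized count of 10 germ cell markers ran from 2995 to 5450 in the 48 females and from 2723 to 6743 in the 53 males, and Dppa3 was the most abundant of them. The 9 genes of meiotic entry, measured as a sum, had a median of 1730 in vehicle females and 386 in vehicle males, with Sycp3 the most abundant. The 7 male germ cell genes had a median sum of 5.78 in vehicle females and 211 in vehicle males, led by Lefty2 in males and Piwil4 in females. No gene of these lists was at 0 in every library of a sex.

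Markers of other cells were not absent, and their level varied between lists, sexes and embryos. The sum of 7 Sertoli markers had a median of 1.35 in vehicle females and 119 in vehicle males, and Ptgds alone averaged 122 ± 78.2 (SD, n = 17) in vehicle males. In males this sum ran from 5.03 to 472. The sum of 8 macrophage markers, led by C1qb, had medians of 25.7 and 17.6 in vehicle females and males. Endothelial markers, of which 4 of 6 were measured, had medians of 33.2 and 24.7. However, Pecam1 alone averaged 32.8 of a mean sum of 33.3 in vehicle females and 23.6 of 23.8 in vehicle males, so that the other 3 lay near 0. The endothelial sum is thus a value of Pecam1 and does not by itself show endothelial cells. The erythroid sum, from 5 of 7 markers and led by Hba-a1 in vehicle embryos, had medians of 1.40 and 1.47 but reached 240 in a vehicle female and 5410 in a vehicle male. Median sums of the pregranulosa (5 of 6 measured), fetal Leydig and stroma markers were 3.30, 3.14 and 1.44 in vehicle females and 4.59, 5.72 and 2.49 in vehicle males, led by Wnt4, Insl3 and Dcn in females and Wnt6, Hsd3b1 and Dcn in males. In bulk RNA of sorted cells, fewer cells of a type and less RNA per cell cannot be told apart.

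As background, DNMT3A and DNMT3B place methyl groups on unmethylated CpG sites, with the catalytically inactive DNMT3L as a cofactor in germ cells, and DNMT1 copies the pattern onto the new strand after replication, guided by UHRF1, which binds hemimethylated CpG. TET1, TET2 and TET3 oxidize 5-methylcytosine, and TDG excises the most oxidized forms, so that base excision repair can restore unmodified cytosine. Mouse PGCs lose most of their DNA methylation before and around the stage sampled here, and male germ cells regain it before birth, whereas female germ cells regain it after birth during oocyte growth.

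The genes spanned a wide range of levels within the same cells. Compared per kilobase of exon, the median normalized count of the 17 vehicle females was 9.93 for Uhrf2, 9.21 for Dnmt1 and 6.43 for Tdg. It was 2.35 for Uhrf1, 1.54 for Tet1 and 0.803 for Dnmt3a, and then 0.728 for Tet2, 0.499 for Dnmt3b and 0.0472 for Tet3. Dnmt1, Uhrf1, Uhrf2 and Tdg thus lay above the de novo methyltransferase genes and Tet2, and Tet3 lay lowest. The place of Tdg in the order is uncertain, because its reads are nearly those of its processed pseudogene Gm9855. Per kilobase of that shorter copy the median was 19.0 in vehicle females and 21.0 in vehicle males. Neighbours in this order were not all separable: Uhrf2 lay above Dnmt1 in 13 of 17 females, Uhrf1 above Tet1 in 12 and Dnmt3a above Tet2 in 11, while Dnmt1 lay above Tdg, Tdg above Uhrf1, Tet1 above Dnmt3a and Dnmt3b above Tet3 in all 17.

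In the 17 vehicle males the order differed in the Tet genes. Medians per kilobase were 10.3 for Uhrf2, 9.23 for Dnmt1, 7.09 for Tdg, 2.86 for Tet1 and 2.35 for Uhrf1. Those of Dnmt3a, Dnmt3b, Tet2 and Tet3 were 1.05, 0.617, 0.291 and 0.0531. Tet1 stood above Uhrf1 in 11 of 17 males and thus was not separable from it, and Dnmt3b stood above Tet2 in 15 of 17, the reverse of the order in females, in which Tet2 stood above Dnmt3b in 15 of 17.

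Low levels limit 2 of the genes. Tet3 rested on a median of 5 reads per library, with 3 reads or fewer in 38 of 99 libraries and none in 7. Dnmt3b rested on a median of 19 reads and Tet2 on 41, while every library held at least 229 reads of Dnmt1 and 106 of Tet1. Values of Tet3 are therefore the least certain of the set.

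Between the sexes, 4 of the 9 genes differed in vehicle embryos: Tet1, Dnmt3a and Dnmt3b were higher in male PGCs and Tet2 was higher in female PGCs. Of all 13288 genes tested, 56.5% were called in this comparison, 27.9% higher in males and 28.6% lower, so a count of 4 of 9 is near the share of all genes and is not a result about the set. The values of single genes are what the comparison shows. The median log2 fold change of the 9 genes was 0.14, against 0.00 over all genes.

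Tet1 differed most clearly among the 9 genes. Its protein is the main TET enzyme of PGCs and is needed there for the demethylation of meiotic genes and imprints. Tet1 (ENSMUSG00000047146.17, chr10:62804570-62908996 on the minus strand of GRCm38) had a lowest, median and highest normalized count of 14.4, 22.2 and 52.9 in vehicle females and of 28.8, 41.1 and 77.7 in vehicle males. Every vehicle male lay above the female median, 14 of 17 females lay below every male and 4 males above every female, so the groups overlapped through 3 females. These 3 include F2 female D3133.2 at 52.9 and F1 female C4605.2 at 50.5. The means were 44.1 ± 11.6 in males and 25.3 ± 10.7 in females (SD, n = 17 each). Its log2 fold change was 0.84 (SE 0.13, adjusted p = 7.36e-08 by limma), and of 15 vehicle litters that gave both sexes, 13 had more Tet1 in the brother.

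Tet2 was the one gene of the set that was called lower in males. It encodes a TET dioxygenase without the CpG-binding CXXC domain of its relatives. Tet2 (ENSMUSG00000040943.12, chr3:133463679-133545139, minus strand) had a lowest, median and highest normalized count of 4.25, 6.70 and 8.48 in vehicle females and of 0.947, 2.68 and 9.83 in vehicle males. Below every female lay 13 of the 17 males, while F1 male C4321.1 at 9.83 lay above every female. The means were 3.54 ± 2.22 in males and 6.27 ± 1.27 in females (SD, n = 17 each). Its log2 fold change was -0.90 (SE 0.22, adjusted p = 0.000385 by limma), and in 13 of 15 vehicle litters the brother had less Tet2. Tet1 and Tet2 thus differed in opposite directions in the same libraries.

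Both de novo methyltransferase genes were higher in males, with overlapping groups. Dnmt3a (ENSMUSG00000020661.15, chr12:3806007-3914443, plus strand) had a lowest, median and highest normalized count of 5.31, 7.96 and 10.5 in vehicle females and of 4.85, 10.4 and 16.9 in vehicle males. Above every female lay 8 males, and 15 of 17 males lay above the female median. The means were 10.9 ± 3.16 in males and 7.86 ± 1.58 in females (SD, n = 17 each), and the log2 fold change was 0.41 (SE 0.13, adjusted p = 0.00414 by limma). Dnmt3b (ENSMUSG00000027478.15, chr2:153649450-153687730, plus strand) had values of 1.02, 2.16 and 3.005 in females and of 1.89, 2.67 and 5.98 in males. For this gene, 7 females lay below every male and 6 males above every female. Its log2 fold change was 0.48 (SE 0.15, adjusted p = 0.00355 by limma), and for each of both genes 13 of 15 vehicle litters had more in the brother.

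Antisense genes overlap both loci. Dnmt3aos lies at chr12:3859293-3862244 and Dnmt3bos at chr2:153648690-153650286 in GRCm38, and neither was measured as a gene of its own here. Since the counting is not stated to use strand, their reads and those of Dnmt3a and Dnmt3b cannot be told apart where exons overlap.

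Dnmt1, Uhrf1 and Uhrf2 were not called between the sexes in vehicle embryos. Dnmt1 had a lowest, median and highest normalized count of 49.2, 58.0 and 77.3 in females and of 35.3, 58.2 and 75.0 in males, with a log2 fold change of -0.10 (SE 0.08, adjusted p = 0.311 by limma). Uhrf1 had values of 4.29, 8.61 and 14.0001 in females and of 3.11, 8.60 and 13.3 in males, with a log2 fold change of 0.09 (SE 0.19, adjusted p = 0.717 by limma). Uhrf2, the paralogue of Uhrf1, had a log2 fold change of 0.05 (SE 0.08, adjusted p = 0.612 by limma). The ranges of both sexes overlapped in all 3 genes.

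The remaining genes, Tet3 and Tdg, were not called either. Tet3 ran from 0 to 2.36 in vehicle females and from 0.0801 to 1.96 in vehicle males, with a log2 fold change of 0.14 (SE 0.23, adjusted p = 0.617 by limma). Both ranges overlapped. Tdg had a lowest, median and highest normalized count of 14.9, 22.7 and 29.6 in females and of 17.3, 25.0 and 50.7 in males. Its log2 fold change was 0.22 (SE 0.11, adjusted p = 0.0772 by limma). That p lay between 0.0275 and 0.270 over the other settings and passed the threshold in 4 of 14, among them the block for dams (adjusted p = 0.0492).

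Tdg carries a further limit. The processed pseudogene Gm9855 at chr10:42054113-42055306 in GRCm38 had the same number of reads as Tdg in 62 of 99 libraries and differed by at most 10 reads in the others, with 89 to 2384 reads of Tdg per library. Over the 48 females the Pearson correlation of both on the log2 scale was 0.9999. Reads of the gene and of its copy cannot be told apart here, and every value of Tdg is uncertain to that extent.

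**Figure D1:**
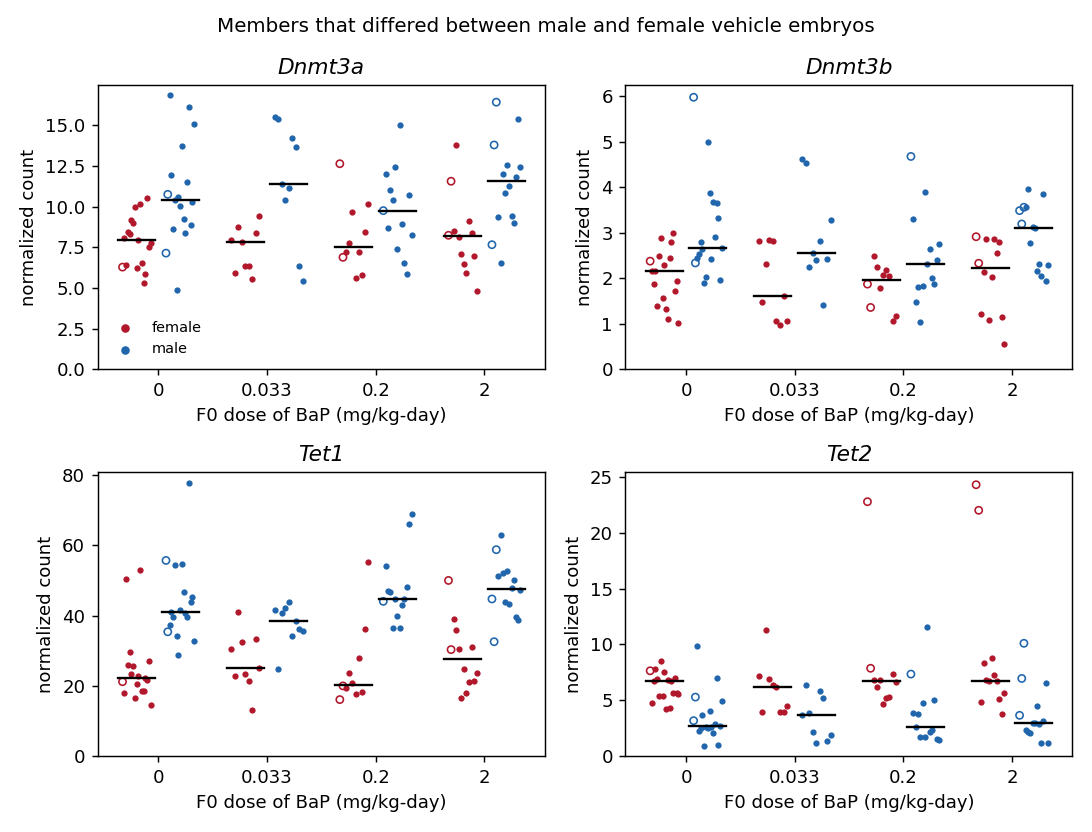
Normalized counts of Dnmt3a, Dnmt3b, Tet1 and Tet2 in each embryo (points; open circles are deep libraries) by F0 dose of BaP in mg/kg-day, with females in red, males in blue and a line at each group's median. In vehicle embryos 14 of 17 females lie below every male for Tet1 and 13 of 17 males below every female for Tet2, while Dnmt3a and Dnmt3b overlap more.

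The same comparison was made at each dose, in embryos that the vehicle comparison had not used. At 0.033 mg/kg-day (9 males, 9 females) 4 of the 9 genes were called, at a share of 42.6% over all genes, and they were Dnmt3a (log2 fold change 0.55), Dnmt3b (0.54) and Tet1 (0.51) higher and Tet2 (-0.80) lower in males. At 0.2 mg/kg-day (13 males, 10 females) 2 of 9 were called, with 48.4% of all genes, namely Tet1 (0.97, SE 0.17) and Tet2 (-1.04, SE 0.28). At 2 mg/kg-day (14 males, 12 females) 5 of 9 were called, with 50.8% of all genes: Dnmt3a (0.44), Dnmt3b (0.50), Tet1 (0.78), Uhrf1 (0.64, SE 0.22, adjusted p = 0.0101 by limma) and Tet2 (-1.16). Tet1 was called higher and Tet2 lower in males at each of the 3 doses. Calls at 0.033 mg/kg-day were the least firm, since Tet2 lost its call there with upper quartile rescaling (adjusted p = 0.0618) and with both edgeR tests (adjusted p = 0.0740 and 0.0660), and Dnmt3b with the fit of both groups alone (adjusted p = 0.0548).

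Among the 36 exposed males and 31 exposed females, Tet1 had a median of 44.0 in males and 23.7 in females. All 36 exposed males lay above the exposed female median. Tet2 had medians of 2.97 and 6.71, and all 31 exposed females lay above the exposed male median. In 25 of 27 exposed litters with both sexes the brothers had more Tet1, and in 24 of 27 they had less Tet2. The direction of both genes within litters was thus also that of the vehicle litters.

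Generation by generation, Tet1 was called in each. In F1 the 5 vehicle females had 21.2, 17.9, 50.5, 26.1 and 29.6 normalized counts of Tet1 and the 5 vehicle males 55.7, 35.4, 37.2, 41.1 and 39.5. A single female, C4605.2 at 50.5, lay above any male but 1. The log2 fold change in F1 was 0.59 (SE 0.21, adjusted p = 0.0370 by limma), where 1 of the 9 genes was called with 23.8% of all genes. This F1 call was lost without the deep libraries (0.43, adjusted p = 0.218), with both edgeR tests (adjusted p = 0.0625 and 0.0602), in the fit of both groups alone (adjusted p = 0.105) and without any 1 of 6 vehicle embryos. With the block for dams Dnmt3a passed in F1 as well (0.54, adjusted p = 0.0280).

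In F2, 2 of the 9 genes were called, with 41.1% of all genes. Tet1 had a lowest, median and highest value of 16.6, 23.1 and 52.9 in 6 females and of 28.8, 44.1 and 54.7 in 6 males, and its log2 fold change was 0.74 (SE 0.20, adjusted p = 0.00361 by limma). Tet2 had values of 4.25, 6.11 and 8.48 in females and of 0.947, 2.61 and 4.07 in males, so that every F2 vehicle male lay below every female, and its log2 fold change was -1.12 (SE 0.33, adjusted p = 0.00629 by limma). In F3, 2 of 9 were called, with 32.2% of all genes. Tet1 ran from 14.4 to 27.1 in 6 females and from 32.8 to 77.7 in 6 males, without overlap, at a log2 fold change of 1.14 (SE 0.20, adjusted p = 3.94e-05 by limma).

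The second gene called in F3 was Dnmt3a, at a log2 fold change of 0.65 (SE 0.23, adjusted p = 0.0306 by limma). Its values ran from 5.31 to 10.5 in the 6 females and from 8.41 to 16.1 in the 6 males and overlapped. The call was lost with both edgeR tests (adjusted p = 0.0775 and 0.0702) and without any 1 of 5 vehicle embryos (adjusted p from 0.0547 to 0.0774). Tet2 in F3 had a log2 fold change of -0.85 (SE 0.35, adjusted p = 0.0562 by limma), and it passed with the block for dams (-0.80, adjusted p = 0.0391). No test showed that these sex differences varied over the generations: for the interaction of sex and generation limma called 0 of 13182 genes (0%), with 158 at an unadjusted p under 0.05 and 0 of the 9 genes among them.

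The wider pathway was described by lists of genes with known parts in it, in the same vehicle comparison. These lists were chosen with earlier results of these data known, so their counts are a description. Of 17 tested genes of base excision repair and active demethylation, 3 were higher and 4 lower in males, with a median log2 fold change of 0.11, against 27.9% higher, 28.6% lower and a median of 0.00 over all genes. Gadd45a, a stress gene linked to active demethylation, was lower in males by -2.19 (SE 0.17, adjusted p = 1.08e-21 by limma), at 3.29 ± 1.93 against 15.2 ± 1.83 normalized counts (SD, n = 17 each). The glycosylase gene Neil3 (-1.39) and Gadd45b (-0.79) were also lower, and among the genes that were higher were the repair genes Ung (0.45) and Apex1 (0.35). Apex1, whose enzyme cuts the strand at the abasic site that TDG leaves, had means of 555 ± 74.9 in males and 432 ± 47.7 in females.

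Of 15 tested partners of maintenance methylation, 3 were higher and 5 lower in males, near the 27.9% and 28.6% of all genes, with a median log2 fold change of 0.05. Dppa3 (0.57), whose protein keeps UHRF1 away from chromatin, Cdca7 (0.56) and Trim28 (0.48), the corepressor that protects imprints, were higher in males. Cdca7l (-0.88), Hells (-0.70), a chromatin remodeller needed for normal methylation, and the ligase gene Lig1 (-0.51) were lower. Hells had means of 511 ± 203 in males and 795 ± 182 in females (SD, n = 17 each).

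Genes for readers of CpG sites were 2 higher and 5 lower of 12 tested, beside 27.9% and 28.6% of all genes, with a median of -0.13. Cxxc1 (0.82) and Mbd3 (0.52) were higher in males, while Zbtb33 (-0.82), Kdm2b (-0.72) and Kmt2a (listed as Mll1, -0.53) were lower. Genes that supply methyl groups through folate and S-adenosylmethionine were called higher for 8 of 13 tested and lower for 0, beside 27.9% and 28.6% of all genes, with a median of 0.32. In the sex comparisons at 0.033, 0.2 and 2 mg/kg-day this list had 2, 8 and 6 higher and 1, 0 and 0 lower, where of all 13288 genes 2705, 3174 and 3467 were higher and 2952, 3256 and 3289 lower. Limma had 9 of the 13 at an unadjusted p under 0.05, and edgeR called 7 higher and 0 lower with either test. Shmt2 (1.26), Shmt1 (0.98) and Mthfd1 (0.50) led this list, and Shmt1 had means of 108 ± 28.0 in males and 57.6 ± 22.5 in females.

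Of 13 tested germline genes whose promoters are methylated in somatic cells, 0 were higher and 10 lower in males, with a median of -0.84. Of all genes, 27.9% were higher and 28.6% lower. All 10 genes of the list at an unadjusted p under 0.05 were lower in limma, and edgeR called 0 higher and 10 lower with either test. Tex101 (-3.34), Taf7l (-3.05) and Sycp1 (-1.84), a synaptonemal complex gene, led them. Several of these genes, Sycp1 and Sycp3 among them, also belong to the meiotic list. All 9 genes of the meiotic list were lower in males, beside 28.6% of all genes, with a median of -1.92. They were led by Stra8 (-7.40), Meioc (listed as Gm1564, -4.47) and Rec8 (-3.88). Replication genes were 5 higher and 6 lower of 20, near the 27.9% and 28.6% of all genes, with a median of -0.10, the largest differences being those of Mcm10 (0.66), Mcm2 (0.50) and Gins2 (0.40) and of Rrm2 (-0.68), Ccne2 (-0.61) and Ccne1 (-0.47).

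Cell type lists were counted in the same comparison, in which 27.9% of all genes were higher in males and 28.6% lower. Of 10 germ cell markers 4 were higher and 4 lower (median 0.01). Among these, Nanos3 (0.95), Pou5f1 (0.80) and Dppa3 (0.57) were higher and Tfap2c (-0.90), Kit (-0.59) and Dazl (-0.52) lower in males. In the sex comparisons at the lowest, middle and highest dose, 3, 3 and 0 germ cell markers were higher and 4, 2 and 3 lower. Of all genes, 42.6%, 48.4% and 50.8% were called there. Of 7 male germ cell genes 6 were higher and 0 lower (median 3.29), led by Lefty2 (6.87), Lefty1 (5.83) and Tdgf1 (4.63). All 6 Sertoli markers tested were higher (median 2.63), led by Ptgds (6.64), Sox9 (3.15) and Gata4 (2.68). For both lists limma had 6 genes at an unadjusted p under 0.05, and edgeR called the same counts, 6 higher and 0 lower. Of 3 tested pregranulosa markers 1 was higher, Wnt6 (2.20), and 1 lower, Wnt4 (-1.08), and of 3 fetal Leydig markers Hsd3b1 (2.21) was higher and Insl3 (-0.55) lower, while either edgeR test called 1 Leydig marker higher and 0 lower. Of the endothelial list only Pecam1 was tested, and it was lower (-0.43). With limma, 0 of 2 stroma, 0 of 7 macrophage and 0 of 3 erythroid markers were called, with 0 at an unadjusted p under 0.05, while edgeR called 2 stroma, 0 macrophage and 3 erythroid markers, all higher in males.

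Sertoli transcripts differed with sex, as did the 4 called genes, and their part in these differences was not tested. An alternative chosen after seeing the data left out the 8 vehicle males above the median Sertoli sum. The 9 males left still reached a sum of 119, against a female median of 1.35, so this alternative does not remove the difference in Sertoli transcripts. The 4 genes were called in it too, and so was Tdg (0.33, adjusted p = 0.0275).

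Within a sex the genes varied from embryo to embryo, and in females some of them varied with the meiotic genes. Relations of the 9 genes with 4 marker sums were computed, 36 in all, after the data had been seen: the meiotic and macrophage sums in 48 females, each from its own dam, and the male germ cell and Sertoli sums in 53 males from 50 dams. All were taken between log2 values, and p-values are from 100000 permutations, of which 1e-05 is the smallest possible value. With the meiotic sum in females, 6 of 9 passed an adjusted p of 0.05 for Pearson r, with the smallest r in size that of Dnmt1. Of 13268 genes outside the meiotic list, 44.8% had an r at least that large in size, so the count is not a result about the set. The share at least as closely related as the member was 4.65% for Tdg, 9.55% for Uhrf1, 20.1% for Tet1, 22.1% for Tet3 and 24.6% for Uhrf2. The summed meiotic genes ran from 403 in F3 female D4021.1 to 6603 in F1 female C4228.3.

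Tdg had the closest relation with the meiotic sum, an inverse one. Pearson r was -0.829 (permutation p = 1e-05, adjusted p = 0.00012) and Spearman rho -0.794 (permutation p = 1e-05) over 48 females. Without the 2 females farthest from the median sum r was -0.812, without the 5 deep libraries -0.814, and within F1, F2 and F3 it was -0.708, -0.747 and -0.915. Tdg had 39.6 normalized counts in D4021.1, which had the lowest meiotic sum, and 17.5 in C4228.3, which had the highest.

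Uhrf1 rose with the meiotic sum. Pearson r was 0.766 and Spearman rho 0.785 (permutation p = 1e-05 and adjusted p = 0.00012 for each) over the same 48 females. Without the 2 farthest females r was 0.810 and without the deep libraries 0.767, and it was 0.797, 0.579 and 0.820 within F1, F2 and F3. The females with the most Uhrf1 were F3 female D2549.1 at 14.9, with a meiotic entry sum of 3994, and F1 female C4232.9 at 14.0001, with a sum of 6114. Uhrf2 went the other way, with r of -0.610 (permutation p = 2e-05, adjusted p = 0.000144) and rho of -0.614 (permutation p = 2e-05, adjusted p = 0.00018). Its r was -0.562 without the 2 farthest females and -0.786 without the deep libraries, and it was -0.403, -0.677 and -0.916 within F1, F2 and F3, so both paralogues varied in opposite directions among female PGCs.

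Tet1 was lower where meiotic genes were higher. Its r was -0.655 and its rho -0.682 (permutation p = 1e-05 and adjusted p = 0.00012 for each), with r of -0.595 without the 2 farthest females, -0.697 without the deep libraries and -0.756, -0.879 and -0.681 within F1, F2 and F3. The vehicle females with the most Tet1, D3133.2 at 52.9 and C4605.2 at 50.5, had meiotic entry sums of 520 and 861, against a vehicle median of 1730. Those 2 females are the ones named above among the 3 females that overlapped the males, and their low meiotic sums are a measurement whose part in the overlap was not tested. Tet3 rose with the meiotic sum, with r of 0.636 (permutation p = 2e-05, adjusted p = 0.000144), rho of 0.560 (permutation p = 6e-05, adjusted p = 0.000432) and r of 0.529 without the deep libraries, on values of few reads.

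Dnmt1 fell weakly with the meiotic sum, at r of -0.435 (permutation p = 0.00188, adjusted p = 0.0113). Its rho of -0.315 did not pass after adjustment (permutation p = 0.0292, adjusted p = 0.0664), and r was -0.327 without the 2 farthest females and -0.221 without the deep libraries, while within F1, F2 and F3 it was -0.582, -0.646 and -0.430. Dnmt3a (r of -0.239, adjusted p = 0.238), Dnmt3b (r of 0.214, adjusted p = 0.273) and Tet2 (r of 0.136, adjusted p = 0.506) did not pass. Without the deep libraries these were -0.402, 0.253 and -0.171, so that of Dnmt3a was larger in size than that of Dnmt1 and that of Tet2 had the other sign. The 5 deep female libraries are too few for a value of their own. Embryo stage, timing within the day and the sort were not analysed here, and their part in these relations was not tested.

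**Figure D2:**
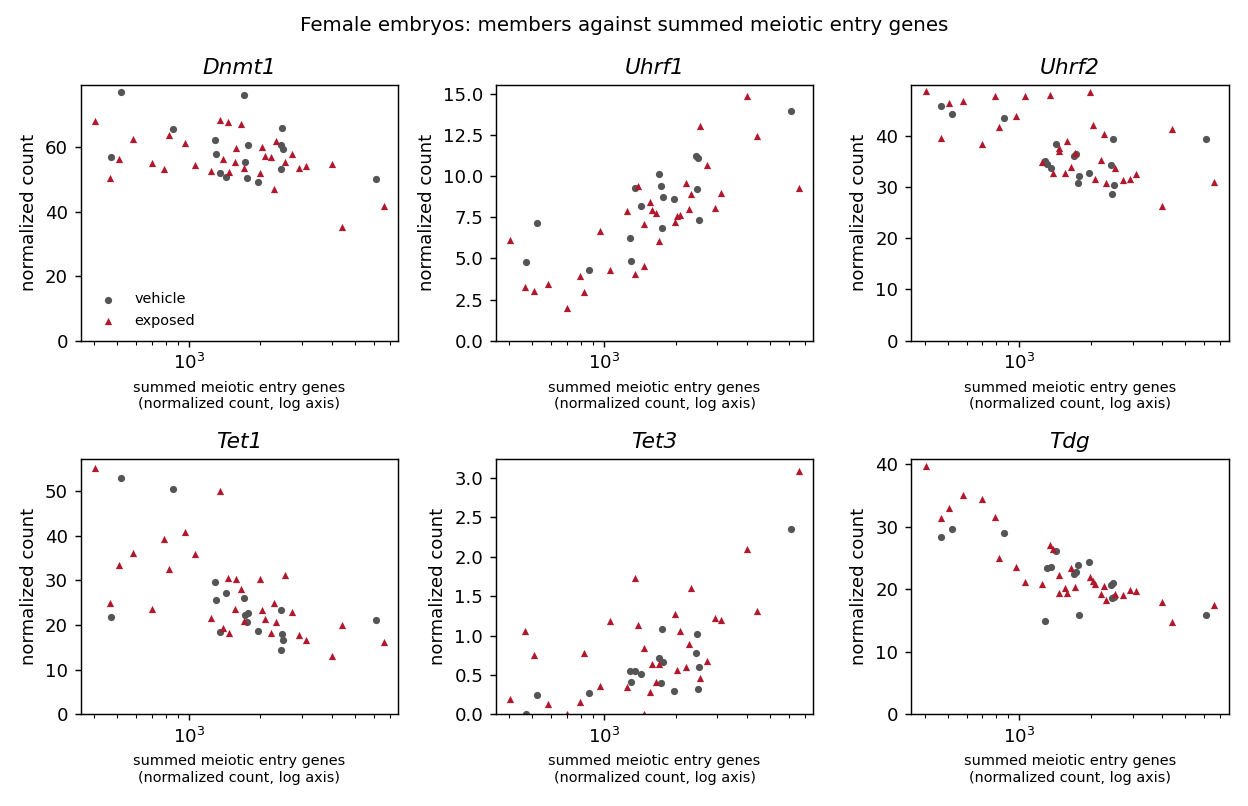
Normalized counts of Dnmt1, Uhrf1, Uhrf2, Tet1, Tet3 and Tdg in 48 female embryos (grey circles vehicle, red triangles exposed) against the summed normalized count of 9 meiotic entry genes on a log axis. Tdg, Tet1 and Uhrf2 are lower and Uhrf1 and Tet3 higher where the sum is higher, with Pearson r of -0.829, -0.655, -0.610, 0.766 and 0.636 on the log2 scale.

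Among males the relations were weaker. With the male germ cell sum, 1 of 9 passed: Tet2, with r of -0.399 (permutation p = 0.00251, adjusted p = 0.0129), rho of -0.435 (permutation p = 0.00125, adjusted p = 0.00653), r of -0.397 without the 2 farthest males, -0.445 without the 6 deep male libraries, -0.0534 within them and 0.0264 in the 17 vehicle males. Of 13281 genes outside that list, 3.43% were at least as closely related. The lowest male germ cell sum, 74.6, belonged to D1390.5, an F3 male descended from an F0 dam given 0.2 mg/kg-day, next to 151 in F1 male D2645.2. With the Sertoli sum, 5 of 9 passed for Pearson r, namely Tet3 (0.395), Uhrf1 (0.354), Dnmt3a (0.349), Tet1 (-0.349) and Tdg (-0.399), at adjusted p of 0.0138, 0.0320, 0.0320, 0.0320 and 0.0138. Of 13282 genes outside the Sertoli list, 20.46% had an r at least as large in size as that of Tet1, the smallest of these, and 13.9% at least as large as that of Tdg.

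Of these 5 relations with the Sertoli sum, Tet1 (rho of -0.438, permutation p = 0.00127, adjusted p = 0.00653) and Tet3 (rho of 0.415, permutation p = 0.00215, adjusted p = 0.00967) also passed by rank. Without the 2 farthest males r was -0.319 for Tet1 and 0.396 for Tet3, but 0.186 for Uhrf1, 0.215 for Dnmt3a and -0.244 for Tdg, so those 3 were smaller without 2 males. Without the deep libraries r was -0.345 for Tet1, 0.613 for Tet3, 0.369 for Uhrf1, 0.352 for Dnmt3a and -0.259 for Tdg. Within F1, F2 and F3 these relations varied, at -0.420, -0.111 and -0.398 for Tet1, 0.0799, 0.657 and 0.534 for Tet3 and -0.573, 0.0853 and -0.496 for Tdg. For Uhrf1 they were 0.266, 0.162 and 0.531, and for Dnmt3a 0.497, 0.190 and 0.364. With the macrophage sum in females, 0 of 9 passed by permutation of either coefficient after adjustment, with 0 at an unadjusted p under 0.05.

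Correlations among the 9 genes themselves are given as a description. They share libraries and scaling. Over 48 females the largest in size were those of Uhrf2 with Tet1 (Pearson r of 0.764), Uhrf1 with Tdg (-0.676), Tet1 with Tdg (0.579) and Uhrf2 with Tdg (0.569), and Uhrf1 and Uhrf2 had r of -0.556. Over 53 males they were Dnmt3a with Tet2 (0.621), Uhrf2 with Tdg (0.555) and Uhrf2 with Tet1 (0.542). Tet1, Uhrf2 and Tdg thus varied together in both sexes, but genes outside the set were more alike to each of them, as given next.

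Of 8484 genes with a mean of at least 5, the most alike to each member were ranked by the smaller of the Pearson correlations over 48 females and over 53 males, as a description over embryos that share libraries and scaling. For Tet1 these were Sgol2 (0.7598), Eif3a (0.756) and Peg3 (0.746), and for Tet2 Tspyl1 (0.687), Inpp4a (0.685) and Impact (0.683). For Dnmt1 they were Trim28 (0.640), Parp1 (0.634) and Ubr4 (0.629), and for Dnmt3a Coil (0.4658), Dst (0.456) and Ddx58 (0.447). Trim28 and Parp1 are themselves in the lists of methylation and repair partners. For Uhrf1 they were Eif4g3 (0.732), Pfn2 (0.700) and Rasd2 (0.698), for Uhrf2 Myb (0.713), Mycn (0.699) and Ctbp2 (0.697), and for Tdg its copy Gm9855 (0.9999), Hnrnpf (0.767) and Skp2 (0.730). Dnmt3b and Tet3 had means under 5 and were not ranked.

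After BaP exposure, none of the 9 genes was called in any comparison with vehicle of the same sex and generation. Over the 18 comparisons of a dose, limma called 0 in 162 tests of these genes, with 9 at an unadjusted p under 0.05 and a lowest adjusted p of 0.331, and both edgeR tests called 0 as well. Those 9 are 5.56% of the member tests, near the 5.10% of all gene tests in the same comparisons, and their values are given below as a description. In 16 of the 18 comparisons limma called 0 genes of any kind (0%), with 25 to 2018 at an unadjusted p under 0.05. The exceptions were F1 females at 2 mg/kg-day with 1 gene (0.00733%) and F2 males at 0.2 mg/kg-day with 19 (0.145%). These 20 genes became 1 to 244 when a library was left out, 2 with the fit of both groups alone and 192 with the likelihood ratio test of edgeR. The 3 doses of a sex and generation share their vehicle embryos.

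The largest of the 9 differences was that of Tet1 in F3 females at 0.2 mg/kg-day, a group of 2. These embryos had 36.2 and 55.1 normalized counts, and the 6 F3 vehicle females had a lowest, median and highest of 14.4, 20.2 and 27.1. Both exposed females lay above every vehicle female. The log2 fold change was 1.13 (SE 0.28, adjusted p = 0.331 by limma). Tdg in the same females had 35.1 and 39.6 against 18.6 to 28.4 in vehicle, at a log2 fold change of 0.64 (SE 0.25, adjusted p = 0.345 by limma). Their meiotic entry sums, 582 and 403, lay low within or below the vehicle range of 471 to 2454, and the part of this in Tet1 and Tdg was not tested.

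Uhrf1 was named at 2 mg/kg-day in F1 females. The 5 exposed females had 4.07, 7.25, 3.95, 4.28 and 7.07 normalized counts and the 5 vehicle females 14.0001, 11.1, 4.29, 10.2 and 6.25. Of the exposed females 3 lay below every vehicle female, by little, and the groups overlapped. The log2 fold change was -0.67 (SE 0.31, adjusted p = 0.483 by limma). In the F2 and F3 females at this dose Uhrf1 had 8.98, 7.99 and 4.57, and 6.09, 13.1, 7.90 and 1.97.

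In F3 males at 0.2 mg/kg-day, Uhrf1 had 7.07, 2.44, 11.1 and 4.10 against 7.25 to 13.3 in 6 vehicle males, at a log2 fold change of -0.88 (SE 0.39, adjusted p = 0.406 by limma). The lowest of these, 2.44, is male D1390.5, whose male germ cell sum was the lowest of all males, and without that male the log2 fold change was -0.55. Dnmt3a in the same 4 males had 6.56, 5.89, 10.7 and 8.29 against 8.41 to 16.1 in vehicle (-0.54, SE 0.26, adjusted p = 0.455 by limma). Both genes had values below the vehicle range in 3 of these 4 males, of which D1390.1 and D1390.5 are littermates.

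The other members with an unadjusted p under 0.05 were in females. In F1 at 0.2 mg/kg-day Tet1 had 16.1, 20.01, 19.3, 23.7 and 20.7 against the F1 vehicle values above (-0.45, SE 0.21, adjusted p = 1 by limma), and without vehicle female C4605.2 the log2 fold change was -0.23. In F2 at 0.033 mg/kg-day Uhrf2 had 43.8, 41.6 and 42.1 against 30.3 to 44.2 in vehicle (0.31, SE 0.15, adjusted p = 1 by limma). In F3 at 0.033 mg/kg-day Dnmt3b had 1.06, 0.986, 1.62 and 1.06 against 1.02 to 3.005 in vehicle (-0.62, SE 0.29, adjusted p = 0.990 by limma), and Tet3 had 1.06, 2.10, 0.749 and 1.06 against 0 to 1.02 (0.88, SE 0.39, adjusted p = 0.990 by limma). The Uhrf2, Dnmt3b and Tet3 groups each overlapped with vehicle.

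**Figure D3:**
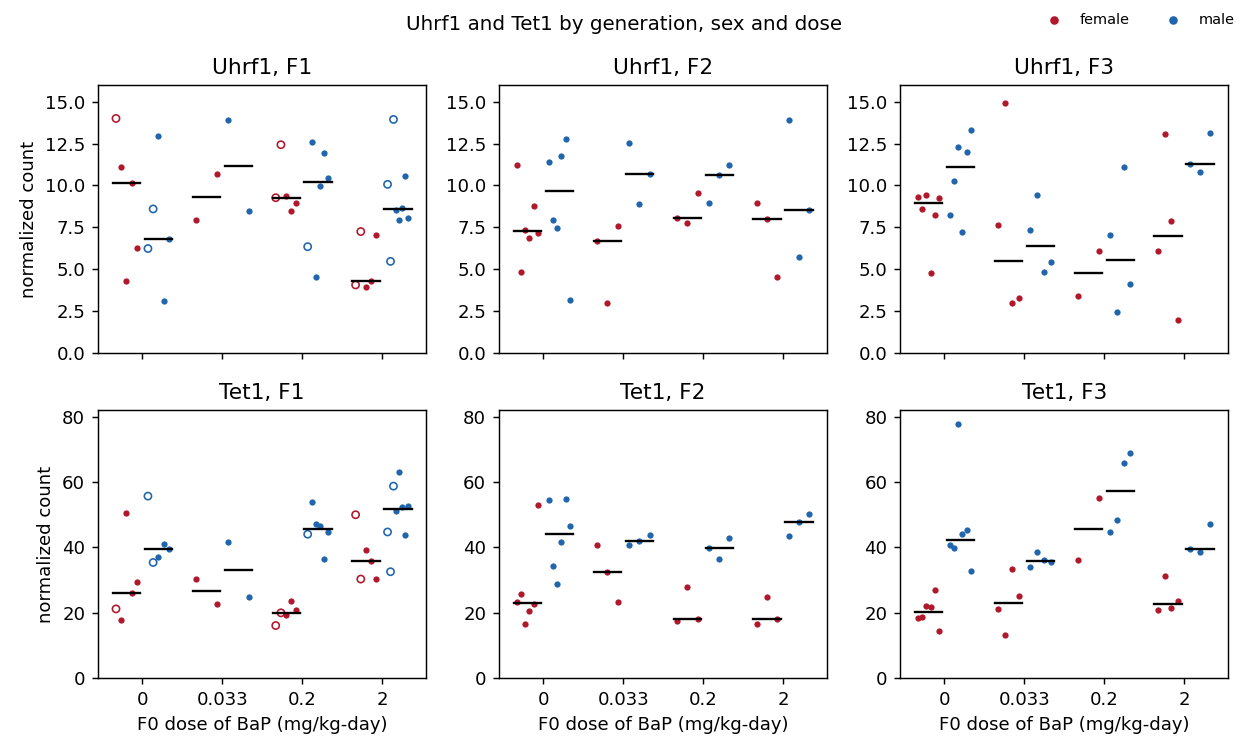
Normalized counts of Uhrf1 (top) and Tet1 (bottom) in each embryo by generation and F0 dose of BaP in mg/kg-day, with females in red, males in blue, open circles for deep libraries and a line at each group's median. F3 females at 0.2 mg/kg-day have 36.2 and 55.1 counts of Tet1, above every F3 vehicle female, and Uhrf1 overlaps with vehicle at every dose in F2 females.

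With generations combined, limma called 0 of the 9 genes in 72 tests over 8 comparisons, 3 doses and their mean in each sex, all against the same vehicle embryos of that sex. Both edgeR tests also called 0 of these genes. A single member test had an unadjusted p under 0.05, that of Uhrf1 in females at 2 mg/kg-day, with a median of 6.58 normalized counts in 12 exposed and 8.61 in 17 vehicle females (log2 fold change -0.42, SE 0.21, adjusted p = 0.211 by limma). The 9 meiotic genes, with which Uhrf1 varied, had a median log2 fold change of -0.46 in the same comparison with 0 called, and the part of this in Uhrf1 was not tested. In that comparison 1.36% of genes were called, 181 of 13288, and in each of the other 7 combined comparisons limma called 0 (0%), with 140 to 1152 at an unadjusted p under 0.05. The 181 genes became 0 without the deep libraries and with generation as a term, and 445 with the block for dams, 414 with a minimum mean of 5 and 277 with a pseudocount of 1.

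Differences between effects were tested as well. The exposure effect did not differ between the sexes for any gene by limma (0 of 13288, 0%, with 261 at an unadjusted p under 0.05 and 0 members among them). Between the generations it differed for 0 genes in females (0%, 264 at an unadjusted p under 0.05) and for 0 in males (0%, 428). Dnmt3b and Tet1 in females were the members with an unadjusted p under 0.05 there (adjusted p = 1 by limma for each). Over the tests of such differences, including that of sex and generation, edgeR called 7 genes with the quasi-likelihood and 6 with the likelihood ratio test, and none of the members. For Uhrf1 the exposure effect over the mean of the doses differed between females and males by -0.26 (SE 0.23, adjusted p = 0.999 by limma). Whether the sex difference of Uhrf1 changed from dose to dose was not tested.

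In vehicle embryos none of the 9 genes was called for a difference between generations. Limma called 0 of 13182 genes (0%) over F1, F2 and F3 in females and 0 (0%) in males, with 206 and 530 at an unadjusted p under 0.05, and edgeR called 1 gene with the quasi-likelihood and 18 with the likelihood ratio test, none of them a member. The days of dosing differ between F1 and the later generations, so these and generation cannot be told apart where F1 is compared with F2 or F3.

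In the deep F1 libraries Tet2 and Tet3 had higher means than in the other F1 libraries, while Tet1 had 27.5 in deep and 28.9 in other females. In the 5 deep F1 females Tet2 had 22.8, 7.87, 24.3, 22.0 and 7.65 normalized counts, a mean of 16.9 ± 8.403 (SD, n = 5), against 6.43 ± 1.29 in the 12 other F1 females, whose highest value was 8.32. The 3 high values belong to embryos C4228.3, C4219.4 and C4258.2, from 3 dams, all exposed. In the deep F1 males the mean of Tet2 was 6.09 ± 2.59 (SD, n = 6) against 3.60 ± 2.10 in 15 others. Tet3 had means of 1.95 ± 0.772 in the deep and 0.629 ± 0.478 in the other F1 females. Tet2 and Tet3 in these libraries rested on 49 reads or more and on 11 reads or more, and the part of depth in these values was not tested. Dnmt1 also had means apart, with 49.5 in deep and 61.5 in other F1 females. In deep and other F1 males the means were 3.87 and 2.86 for Dnmt3b and 30.9 and 24.7 for Tdg. In deep and other F1 females they were 2.17 and 2.05 for Dnmt3b and 19.4 and 22.1 for Tdg. The mean of Tet2 in F1 females at 2 mg/kg-day was 13.3 with and 6.66 without the deep libraries.

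The CpG content of their promoters also differed, between the genes and between starts of the same gene. RefSeq promoters of GRCm38.p6 were matched by symbol for all 9 members, 14 starts in total, and the dinucleotide CG was counted in the 120 bases before each start. It reads the same on both strands and does not overlap itself. Of 32851 promoters of the same length 82.2% held at least 1 CG, with a median of 3, while the member promoters held 1 to 25 and 13 of 14 lay above that median. The 3 sequences below are those of Tet1 and Tet2, which differed in opposite directions between the sexes, and of Dnmt3b, with each CG in capitals and written 5′ to 3′ on the strand of the gene. The Tet1 stretch (chr10:62887325-62887444, minus strand) held 6 CG, as many as or fewer than 37.6% of promoters, at a start that lies inside the gene as annotated, as does that of Tet2. The Tet2 stretch (chr3:133544391-133544510, minus strand) held 25 (0.344% held as many or more) and the Dnmt3b stretch (chr2:153649329-153649448, plus strand) 16 (7.56%). Methylation at these sites was not analysed here, and a count of CG is a description of the sequence.
Tet1: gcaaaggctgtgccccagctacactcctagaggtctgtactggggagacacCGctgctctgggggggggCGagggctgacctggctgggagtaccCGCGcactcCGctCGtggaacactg
Tet2: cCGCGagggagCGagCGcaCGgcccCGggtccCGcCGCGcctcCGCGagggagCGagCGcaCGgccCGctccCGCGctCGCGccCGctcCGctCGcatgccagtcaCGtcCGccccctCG
Dnmt3b: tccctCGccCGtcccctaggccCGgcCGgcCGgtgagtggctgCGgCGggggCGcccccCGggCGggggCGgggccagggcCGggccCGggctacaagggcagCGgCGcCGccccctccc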

How the data were processed

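The deposited signal values are counts normalized between libraries by the authors, who used Trim Galore, STAR on mm10 (GRCm38) and edgeR according to the submitters' notes. Genes were taken by symbol, and 19 symbols turned into dates were left as they stood. In every library the values were whole multiples of 1 unit within a tolerance of 0.05, which gave whole reads in 99. In F3 male D4190.1 (2 mg/kg-day) and F3 female D1388.3 (vehicle) the unit (0.0997 and 0.100) lay too near a power of 10 to be told apart from rounding, and they were left out of the edgeR tests only. No copies were found among the 184 pairs of the 99 libraries within a group, where chi-square divided by its degrees of freedom was at least 5.44. Pairs across groups were not compared.

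Tests used R 4.3.3 with limma 3.58.1 (trend) on log2(normalized count + 0.5), for genes with a mean of at least 0.5, with Benjamini-Hochberg adjustment over all genes of a comparison and a threshold of 0.05. edgeR 4.0.16 was run on recovered reads. The code was tested on simulated data. Members and lists were chosen with earlier results of these data known, and the 36 marker relations and the added alternatives after the data had been seen. A member is named in a dose comparison at an unadjusted p under 0.05. In all, 14 settings were run beside the one reported, 10 to 14 of them for each kind of result. Each library was left out in turn for the vehicle sex comparisons and the 18 dose comparisons only. One setting used dams as a block, with consensus correlations of 0.262 over all embryos, 0.195 in vehicle, and 0.382, 0.0532 and 0.225 in F1, F2 and F3. Coordinates are those of GENCODE vM21 on GRCm38, and promoters are those of RefSeq.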

Additional observations from a re-analysis of the deposited data

Results flagged for a closer look

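In 126 groups examined, 19 values stood apart from the rest of their group, 9 of them in deep libraries. Chance alone sets a value apart in about 1 in 20 groups. No value was left out for this.

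Dnmt3b in the F1 male vehicle group was 5.98 in embryo C3774.3 (deep library), next to 2.79. Dnmt3b in the F3 female 0.033 mg/kg-day group was 1.62 in embryo D3501.3, next to 1.06. Uhrf1 in the F1 female 0.2 mg/kg-day group was 12.4 in embryo C4242.1 (deep library), next to 9.39. Uhrf1 in the F3 female vehicle group was 4.78 in embryo D3526.1, next to 8.21. Uhrf2 in the F1 female 0.2 mg/kg-day group was 41.4 in embryo C4242.1 (deep library), next to 32.8. Uhrf2 in the F1 female 2 mg/kg-day group was 37.5 in embryo D2587.1, next to 47.8. Uhrf2 in the F1 male 2 mg/kg-day group was 29.2 in embryo D2587.2, next to 35.9. Uhrf2 in the F1 male vehicle group was 54.3 in embryo C3774.3 (deep library), next to 38.9. Uhrf2 in the F2 female vehicle group was 44.2 in embryo D3133.2, next to 34.5. Uhrf2 in the F3 male 0.2 mg/kg-day group was 48.3 in embryo D4021.2, next to 37.6. Uhrf2 in the F3 male vehicle group was 55.0 in embryo D3402.3, next to 37.4. Tet1 in the F1 male vehicle group was 55.7 in embryo C3774.3 (deep library), next to 41.1. Tet1 in the F2 female vehicle group was 52.9 in embryo D3133.2, next to 25.6. Tet1 in the F3 male vehicle group was 77.7 in embryo D3402.3, next to 45.4. Tet2 in the F1 female 0.2 mg/kg-day group was 22.8 in embryo C4228.3 (deep library), next to 7.87. Tet3 in the F1 female vehicle group was 2.36 in embryo C4232.9 (deep library), next to 0.719. Tdg in the F1 male 2 mg/kg-day group was 36.8 in embryo C4219.1 (deep library), next to 26.2. Tdg in the F1 male vehicle group was 50.7 in embryo C3774.3 (deep library), next to 28.6. Tdg in the F3 female 2 mg/kg-day group was 34.4 in embryo E0103.2, next to 20.8.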

How the results depend on the processing

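No called result changed sign under any setting. Some uncalled fold changes near 0 did, among them vehicle Uhrf1 (0.09 to -0.09) and Tet3 (0.14 to -0.03) without males above the median Sertoli sum. In vehicle embryos the 4 member calls between the sexes held under every setting that tested the gene (Dnmt3b was not tested with a minimum mean of 5), and Tdg was added with upper quartile rescaling (0.24, adjusted p = 0.0467), the dam block (0.21, 0.0492), generation as a term (0.23, 0.0448) and without males above the median Sertoli sum (0.33, 0.0275). Members called over the 18 dose, 8 combined, generation and interaction tests were 0 under every setting.

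At 0.033 mg/kg-day members lower in males went from 1 to 0 with upper quartile rescaling (Tet2 -0.75, adjusted p = 0.0618), edgeR quasi-likelihood (-0.78, 0.0740) and edgeR likelihood ratio (-0.78, 0.0660), and Dnmt3b lost its call with both groups alone (adjusted p = 0.0548). In F1 members higher went from 1 to 0 without the deep libraries (Tet1 0.43, 0.218), with both groups alone (0.105), quasi-likelihood (0.54, 0.0625) and likelihood ratio (0.54, 0.0602), and to 2 with the dam block (Dnmt3a 0.54, 0.0280). In F2 members lower went from 1 to 0 with a minimum mean of 5, which did not test Tet2. In F3 members lower went from 0 to 1 with the dam block (Tet2 -0.80, 0.0391), both groups alone (0.0459) and without the male lowest in male germ cell markers (0.0469), and members higher from 2 to 1 with quasi-likelihood (Dnmt3a 0.60, 0.0775) and likelihood ratio (0.0702).

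A minimum mean of 5 moved gene counts: vehicle 3703 to 2415 higher and 3799 to 2343 lower, 0.033 mg/kg-day 2705 to 1688 and 2952 to 1888, 0.2 mg/kg-day 3256 to 1906 lower, 2 mg/kg-day 3289 to 2152 lower, F1 1501 to 985 higher, F2 2710 to 1766 and 2665 to 1685, and F3 2153 to 1368 and 2080 to 1162.

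The 181 genes of the 8 combined comparisons became 23 and 277 with pseudocounts of 0.1 and 1, 19 without a filter, 414 with a minimum mean of 5, 28 with upper quartile rescaling, 0 without the deep libraries, 445 with the dam block, 0 with generation as a term, 53 with quasi-likelihood and 2 without the males above the median Sertoli sum. The 20 genes of the 18 dose comparisons became 12 with a minimum mean of 5, 2 with both groups alone, 11 with quasi-likelihood and 192 with likelihood ratio. Generation tests went from 0 genes to 2 without a filter, 1 with quasi-likelihood and 18 with likelihood ratio, and interactions from 0 to 7 and 6 with the edgeR tests.

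Leaving out 1 library gave 3 to 4 members higher and 1 to 1 lower in vehicle, 0 to 2 higher in F1, 1 to 2 higher in F2, and 1 to 2 higher and 0 to 1 lower in F3, and 0 to 0 over the 18 dose comparisons. Genes were at least 3613 higher and ran from 3703 to 3920 lower in vehicle, and were 1254 to 1561 and 1322 to 1829 in F1, 2485 to 2999 and 2398 to 2895 in F2, 1877 to 2267 and 1759 to 2351 in F3, and from 1 to 244 over the 18 dose comparisons. Tdg in vehicle passed without C4992.2 (adjusted p = 0.0408) or D3133.2 (0.0482). In F1 Tet1 lost its call without C3774.3, C4232.9, C4321.6, C4605.1, D1961.1 or D2580.2, while Dnmt3a passed without C3774.3 (0.0499) and Tdg without C4605.2 (0.0370). In F2 Dnmt3b passed without C4992.1 (0.0388), C4992.2 (0.0435) or D2991.3 (0.0499). In F3 Dnmt3a lost its call without D1344.3, D1388.3, D3402.1, D3402.3 or D3651.1, and Tet2 passed without D2203.2, D4190.1, D3501.1, D1390.5, D3402.3 or D3651.1. The 18 dose comparisons had 44 genes without D2587.1, 60 without D1669.1, 13 without D3620.3, 58 without D4028.3, 244 without D1040.1, 134 without C4988.2, 192 without D1464.2, 84 without D3523.1, and 1 without D1064.1, D3371.2, C4992.2, D2996.2 or D3001.1.

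Limits: dose groups held 2 to 8 embryos. Depth, dam and dose overlap in F1. Generation and the days of dosing overlap for F1 against F2 and F3. Tet3 and Dnmt3b rest on few reads, and Tdg shares reads with a pseudogene. Beyond the marker sums, cell composition, stage and the sort were not analysed here, nor were methylation and protein.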

Other observations

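Gm9855, a processed pseudogene of Tdg, had the same number of reads as Tdg in 62 of 99 libraries. A value of either gene should be read with the other beside it.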
